A study of Mus musculus with 72 samples.

Results

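The genes described here are 32 genes of fatty acid beta-oxidation and of the peroxisome, out of 22180 genes that had a probe set of their own on the arrays. They were chosen by symbol: a probe set counted for a gene only where it was annotated with that symbol alone, and the probe set with the highest mean stood for the gene. All 32 symbols had such a probe set and all 32 passed the filter on low intensity. By the known location of their products, 16 genes are mitochondrial, 14 are peroxisomal, and Crat and Eci2 are found in both organelles. Only Crat had more than 1 probe set, and its second one lay near the level of the filter, with a mean of 6.24 and 6.22 in the SIRT6 KO and WT livers and of 6.42 and 6.45 in the SIRT1 KO and WT livers (log2 scale).

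Beta-oxidation shortens a fatty acyl-CoA by repeated rounds of oxidation, hydration, a further oxidation and thiolytic cleavage. Mitochondria handle most long-, medium- and short-chain fatty acids and pass the electrons on to the respiratory chain, and fatty acids reach them as carnitine esters. Peroxisomes start on very long and branched chains and on bile acid precursors, and hand the shortened products on, partly as carnitine esters. In the liver many of these genes are known targets of the nuclear receptor PPARA, and the pathway is the source of ketone bodies in fasting.

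The livers came from 2 cohorts kept in 12 h of light and 12 h of dark and collected at ZT (zeitgeber time, in hours from lights on) 0, 4, 8, 12, 16 and 20. In the SIRT6 cohort (strain label 129 mixed), mice labelled SIRT6 liver-specific knockout (KO) were set against mice labelled wild type (WT). In the SIRT1 cohort (C57BL/6), mice labelled SIRT1 liver-specific KO were set against their own WT. Each of the 24 groups held 3 arrays, which gives 18 arrays per genotype and cohort and 72 in all. The labels name neither the allele, the Cre driver, the age nor the feeding state, and do not state whether the replicates of a group are separate mice. The p-values therefore cover the spread between samples, which may be technical. SIRT6 and SIRT1 are NAD-dependent deacylases, and the design asked how each bears on liver transcripts over the day.

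The Sirt6 probe set did not fall in the livers labelled SIRT6 KO: it averaged 7.89 ± 0.10 there, against 7.32 ± 0.18 in WT livers (log2 scale, SD, n = 18 each), a difference of 0.57 ± 0.05 (SE; limma, adjusted p = 8.89e-09), with 18 of 18 KO-labelled arrays above the WT mean of their time. The Sirt1 probe set averaged 8.74 ± 0.11 in SIRT1 KO livers and 8.74 ± 0.18 in WT livers (adjusted p = 0.961). Whether either probe set lies in the deleted stretch is not known here, so every direction below is between arrays as labelled. Median intensities ran from 43.9 to 52.9 over the SIRT6 arrays and from 44.4 to 53.8 over the SIRT1 arrays. Replicate arrays correlated less well in the SIRT6 cohort, where an array's mean correlation with its replicates was 0.952 to 0.987, than in the SIRT1 cohort, where it was 0.983 to 0.991. All 8 hepatocyte markers were measured and 0 of them differed by genotype in either cohort. All 13 measured core clock genes were rhythmic in SIRT6 KO, SIRT1 KO and SIRT1 WT livers and 12 of them in SIRT6 WT livers. In whole liver, fewer cells of a type and less RNA per cell cannot be told apart.

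Promoter windows of RefSeq on GRCm38.p6, each from 250 bases before to 50 bases after the start of the gene, were given for 25 of the 32 genes. The 3 shown are that of Crot, the gene for which the time of day took the largest share of the variance in both cohorts, that of Hadha, which it shares with Hadhb on the opposite strand, and that of Acadvl, which holds a nuclear receptor half-site. They lie at chr5:8997097-8997396 (minus strand), chr5:30154931-30155230 (minus strand) and chr11:70015379-70015678 (minus strand). Capitals mark the 228 bases that the Hadha window shares with the Hadhb window, and the AGGTCA copy in the Acadvl window.
Crot: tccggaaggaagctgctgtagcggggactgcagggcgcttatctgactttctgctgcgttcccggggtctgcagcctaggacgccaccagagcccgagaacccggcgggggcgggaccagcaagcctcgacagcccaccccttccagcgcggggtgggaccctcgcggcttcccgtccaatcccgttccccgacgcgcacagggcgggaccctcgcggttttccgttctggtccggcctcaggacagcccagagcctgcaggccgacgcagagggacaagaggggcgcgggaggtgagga
Hadha: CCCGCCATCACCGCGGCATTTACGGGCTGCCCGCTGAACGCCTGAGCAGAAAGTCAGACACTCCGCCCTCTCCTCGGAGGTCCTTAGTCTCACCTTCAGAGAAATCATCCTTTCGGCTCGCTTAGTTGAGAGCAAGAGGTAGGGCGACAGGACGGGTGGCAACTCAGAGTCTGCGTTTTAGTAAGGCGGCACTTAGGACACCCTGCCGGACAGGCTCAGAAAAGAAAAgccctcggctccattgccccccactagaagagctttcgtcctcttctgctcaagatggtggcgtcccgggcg
Acadvl: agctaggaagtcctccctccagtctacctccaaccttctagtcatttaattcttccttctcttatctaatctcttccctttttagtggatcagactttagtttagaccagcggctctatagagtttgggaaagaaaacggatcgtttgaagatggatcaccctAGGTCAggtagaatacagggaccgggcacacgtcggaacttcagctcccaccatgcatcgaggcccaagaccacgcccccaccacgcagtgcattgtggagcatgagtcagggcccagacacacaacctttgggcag
AGGTCA, searched on both strands, was found in the windows of 2 of the 25 genes (Acadm and Acadvl), and in 18.1% of the 27025 genes with a window. A direct repeat of AGGTCA with 1 base between the copies, the form that PPARA is known to bind, was in 0 of the 25 and in 0.048% of all. The E-box CACGTG and the D-box TTATGNAA, sites of clock transcription factors, were in 0 of the 25, against 8.09% and 3.99% of all. The copy in the Acadvl window begins at position -87 from the start, on the strand of the gene, and that in the Acadm window at -249, on the other strand. These matches describe the letters of these windows alone.

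The pathway was not rhythmic as a block. A 24 h cosine was fitted to each set of 18 arrays, and a rhythm was called at an adjusted p under 0.05 over all 13308 genes tested (limma, moderated F). In the SIRT6 cohort 6 of the 32 genes were rhythmic in KO-labelled livers (10.6% of all genes were) and 5 in WT livers (10.1% of all). For SIRT1, 13 were rhythmic in KO livers (23.2% of all) and 8 in WT livers (18.3% of all). At an unadjusted p under 0.05 the counts were 11 and 12 in SIRT6 KO and WT livers, beside 24.8% and 27.1% of all genes, and 15 and 12 in SIRT1 KO and WT livers, beside 35.9% and 32.4%. Crot, Crat and Bdh1 were rhythmic in all 4 sets, a share of 9.38% against 3.19% of all genes, and 15 genes were rhythmic in 1 set or more, or 46.9% against 35.3%. Peroxisomal genes made up 9 of these 15 and mitochondrial genes 4, the others being Crat and Eci2. That is 64.3% of the 14 peroxisomal and 25% of the 16 mitochondrial genes, beside the 35.3% of all genes. Set by set the gap was seen in KO livers only. In SIRT6 KO livers 4 peroxisomal (28.6%) and 1 mitochondrial gene (6.25%) were called, and in SIRT1 KO livers 7 (50%) and 4 (25%). In WT livers the counts were alike, at 2 (14.3%) and 2 (12.5%) for SIRT6 and 3 (21.4%) and 3 (18.8%) for SIRT1. The remaining 17 genes, 12 of them mitochondrial, were called in no set. An F test over the 6 times, which assumes no cosine shape, ended the calls of Acaa1a, Acox2, Crat and Pex3 in SIRT6 KO livers and of Bdh1, Crat, Etfdh and Pex3 in SIRT6 WT livers. It also ended those of Acat1, Decr2, Pex7, Pex16 and Pex19 in SIRT1 KO livers and of Acadl, Decr2 and Etfdh in SIRT1 WT livers, and it left those of Crot in all 4 sets.

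**Figure D1:**
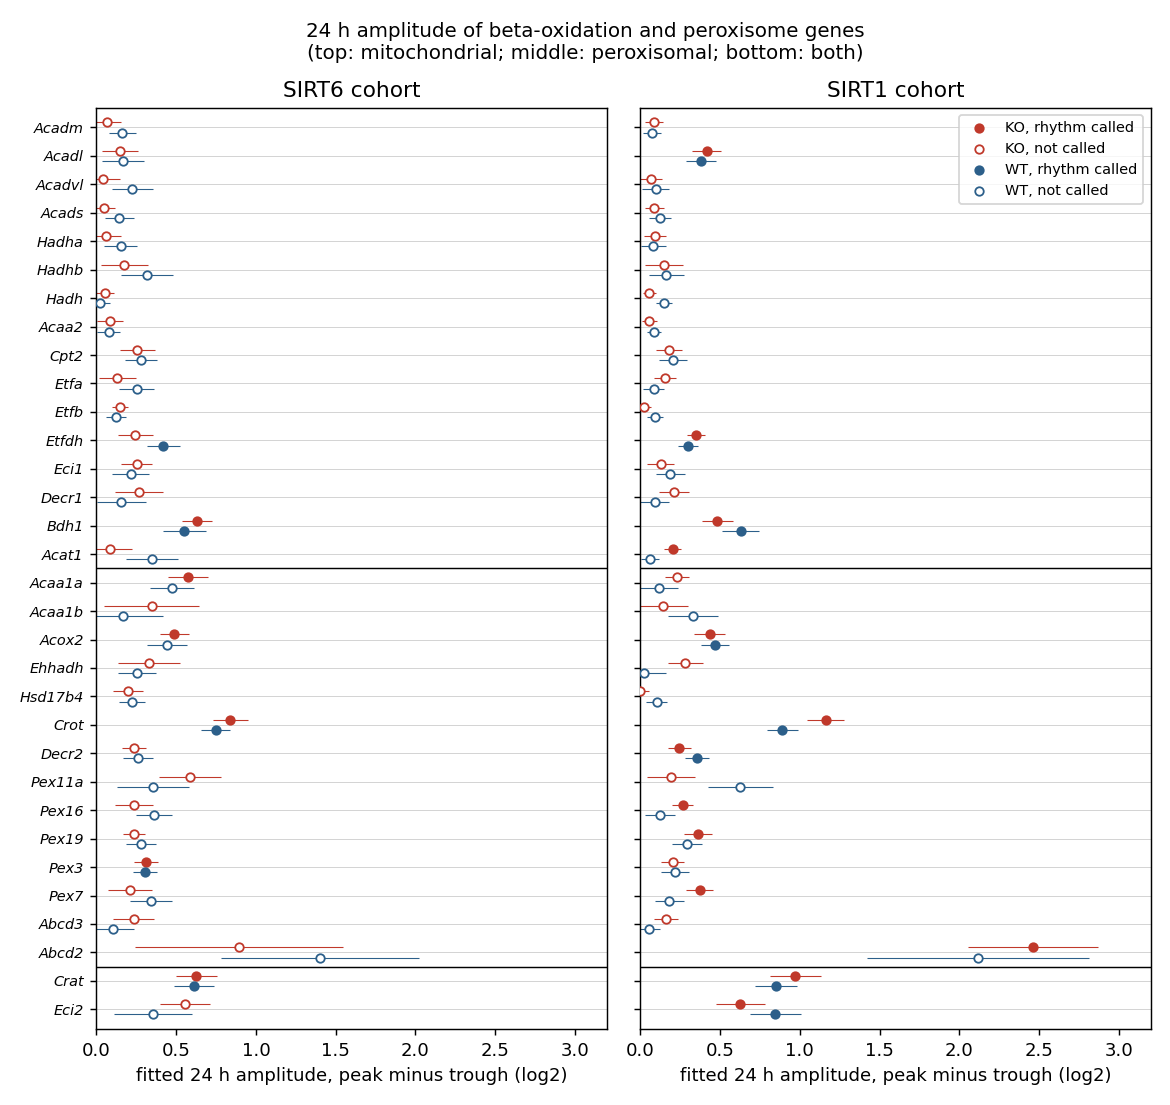
Fitted 24 h amplitude (peak minus trough, log2, on the x axis) of each of the 32 genes in the SIRT6 cohort (left) and the SIRT1 cohort (right), KO above WT on each line, with the SE as bars and filled points for a called rhythm. The carnitine acyltransferases Crot and Crat and the ketone body enzyme Bdh1 are filled in all 4 sets, most mitochondrial genes lie close to 0, and Abcd2 stands far to the right with wide bars.

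Of the 3 carnitine acyltransferases, 2 cycled strongly, in different phases. Crot, the peroxisomal carnitine octanoyltransferase that turns shortened acyl-CoAs into carnitine esters for export, was high at the start of the light phase and low from ZT12 to ZT16. At ZT4 its 3 arrays read 11.89, 11.96 and 12.04 in SIRT6 KO livers, against 11.89, 11.96 and 11.99 in WT livers. At ZT12 they read 10.83, 11.19 and 11.39 in SIRT6 KO livers, against 11.12, 11.27 and 11.28 in WT livers (log2 levels). In both genotypes every ZT4 array was above every ZT12 array. Its amplitude was 0.84 ± 0.11 in SIRT6 KO and 0.75 ± 0.09 in SIRT6 WT livers, and 1.16 ± 0.11 in SIRT1 KO and 0.89 ± 0.10 in SIRT1 WT livers (log2, peak minus trough, SE), which is a fold of 1.68 to 2.24 between trough and peak. Adjusted p ranged from 2.08e-06 to 0.000336, and the fitted peak lay between ZT 1.22 and ZT 3.05. Time of day took 82.5% of its variance in the SIRT6 arrays and 79.7% in the SIRT1 arrays.

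Crat, the carnitine acetyltransferase that exchanges acetyl groups between CoA and carnitine, ran ahead of Crot on the 24 h cycle, with its low at ZT8 and its high around ZT20. At ZT8 it read 9.33, 9.39 and 9.48 in SIRT1 KO livers, against 9.04, 9.40 and 9.52 in WT livers. At ZT20 it read 10.36, 10.51 and 10.52 in SIRT1 KO livers, against 10.17, 10.23 and 10.33 in WT livers. High and low times did not overlap in either genotype. The amplitude was 0.97 ± 0.16 in SIRT1 KO and 0.85 ± 0.13 in SIRT1 WT livers, and 0.63 ± 0.13 in SIRT6 KO and 0.61 ± 0.12 in SIRT6 WT livers (log2), with adjusted p of 0.000402 to 0.0119 and peaks from ZT 19.1 to ZT 21.6. Taking the mean of its 2 probe sets ended the call in SIRT6 WT livers (adjusted p = 0.0884). Cpt2, which restores acyl-CoA inside the mitochondrion, was called in no set, with amplitudes of 0.18 to 0.28.

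**Figure D2:**
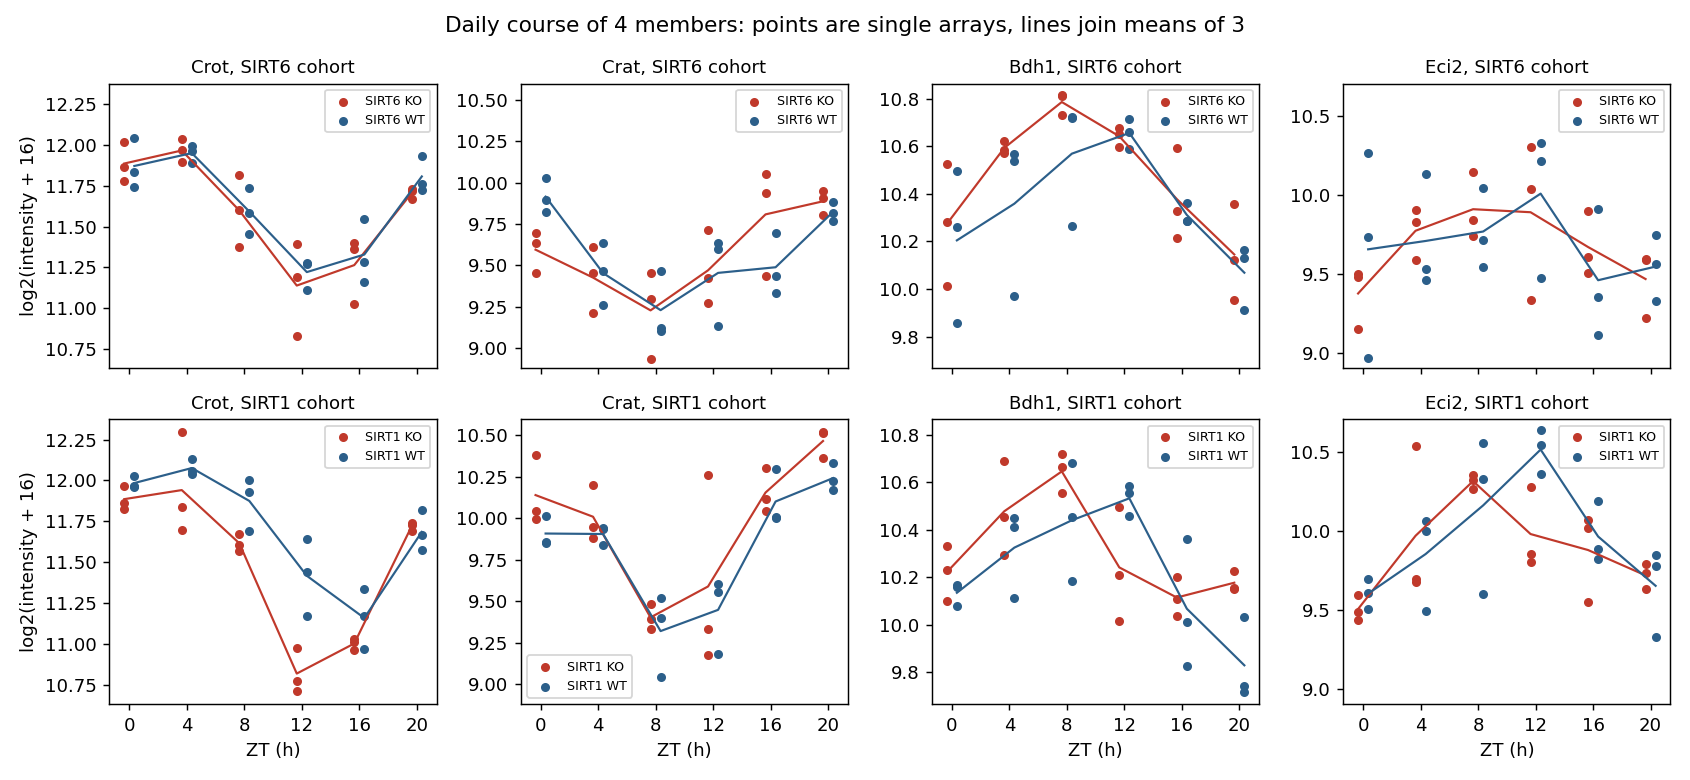
Level (log2 of intensity + 16) of Crot, Crat, Bdh1 and Eci2 at 6 zeitgeber times, 1 column per gene, with the SIRT6 cohort above and the SIRT1 cohort below; points are single arrays, KO drawn left of WT, and lines join the means of 3. Crot is lowest at ZT12 or ZT16 and Crat at ZT8, and at ZT12 in the SIRT1 cohort the 3 KO arrays of Crot (10.71 to 10.97) lie below the 3 WT arrays (11.17 to 11.64).

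The ketone body enzymes differed from each other. Bdh1, which interconverts acetoacetate and 3-hydroxybutyrate, peaked in the second part of the light phase, between ZT 6.38 and ZT 9.67. At ZT8 it read 10.73, 10.81 and 10.82 in SIRT6 KO livers, against 10.26, 10.72 and 10.72 in WT livers. At ZT20 it read 9.95, 10.12 and 10.36 in SIRT6 KO livers, against 9.91, 10.13 and 10.16 in WT livers, so the times did not overlap in either genotype. The amplitude was 0.63 ± 0.09 in SIRT6 KO, 0.55 ± 0.13 in SIRT6 WT, 0.48 ± 0.10 in SIRT1 KO and 0.63 ± 0.12 in SIRT1 WT livers (log2). The call in SIRT6 WT livers was the weakest (adjusted p = 0.0336): it ended when array medians were centred and in 10 of 18 fits that left out 1 array, reaching an adjusted p of 0.0709 without replicate 1 of ZT8. Acat1, the mitochondrial acetoacetyl-CoA thiolase, was called in SIRT1 KO livers alone (0.20 ± 0.05, adjusted p = 0.0203, or 0.0531 without replicate 3 of ZT4, and lost without an intensity trend). The difference in rhythm between genotypes was tested separately, as given further on.

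Among the 5 peroxisomal oxidation enzymes Acox2 was rhythmic in 3 of the 4 sets. Acox2 is the oxidase of branched chains and of bile acid precursors. Its amplitude was 0.49 ± 0.09 (adjusted p = 0.00618) in SIRT6 KO livers and 0.44 ± 0.13 (adjusted p = 0.0715) in SIRT6 WT livers. For SIRT1 it was 0.43 ± 0.10 in KO livers (adjusted p = 0.00794) and 0.47 ± 0.09 in WT livers (adjusted p = 0.00283). All 4 fits put its peak between ZT 22.1 and ZT 1.22, around lights on. Acaa1a, a peroxisomal thiolase, was called in SIRT6 KO livers alone (0.57 ± 0.12, adjusted p = 0.0154, peak at ZT 9.20). Its near-identical copy Acaa1b, and the bifunctional enzymes Ehhadh and Hsd17b4 that carry out the middle steps, were called in no set. Acaa1a and Acaa1b are close enough in sequence that probes of one may read the other, so their values are uncertain.

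The enzymes for unsaturated fatty acids and the transporters also split. Eci2, an enoyl-CoA isomerase, had an amplitude of 0.63 ± 0.16 in SIRT1 KO livers and 0.85 ± 0.16 in SIRT1 WT livers (adjusted p = 0.0162 and 0.00306), with peaks at ZT 9.38 and ZT 10.9. Eci2 reached 0.55 ± 0.16 (adjusted p = 0.0657) in SIRT6 KO livers and 0.35 ± 0.25 (adjusted p = 0.556) in SIRT6 WT livers. Decr2, the peroxisomal dienoyl-CoA reductase, was called in SIRT1 KO livers (0.24 ± 0.07, adjusted p = 0.0459) and SIRT1 WT livers (0.35 ± 0.08, adjusted p = 0.00739), the KO call ending in 12 of 18 fits without 1 array (up to 0.103) and under quantile normalization, centred medians, no filter and no trend. Their mitochondrial counterparts Eci1 and Decr1 were called in no set. Abcd2, a peroxisomal transporter of very long-chain acyl-CoA, had the largest fitted amplitude of the 32 genes, 2.46 ± 0.41 in SIRT1 KO livers (adjusted p = 0.000593, peak at ZT 11.1). Its SIRT1 KO arrays read 5.04, 5.30 and 5.63 at ZT0 and 7.50, 7.65 and 8.92 at ZT12. The ZT0 values lie under the level of the filter (6.00), so the size of this amplitude is uncertain. It ran from 1.645 to 3.025 over the alternatives, with the call kept in each. In SIRT1 WT livers the fitted amplitude was 2.12 ± 0.70 (adjusted p = 0.0901). Abcd2 was also the least repeatable gene, with an SD within groups of 1.09 (SIRT6) and 1.01 (SIRT1), against a median over the peroxisomal genes of 0.199 and 0.135. Abcd3, its abundant liver relative, was called in no set.

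Of the 5 genes of peroxisome assembly and division, 4 had a called rhythm in 1 cohort each, with called amplitudes of 0.27 to 0.37. Over all genes tested, 35.3% had a called rhythm in 1 set or more. Pex3, which with Pex16 and Pex19 inserts membrane proteins, was called in both genotypes of the SIRT6 cohort at 0.31 ± 0.08 in KO-labelled and 0.30 ± 0.07 in WT livers (adjusted p = 0.0350 and 0.0326). Both calls ended without the filter, the KO one with centred medians, the WT one under quantile normalization, and in 8 of 18 and 7 of 18 fits without 1 array (up to 0.0792 and 0.0770). Pex16, Pex19 and Pex7, the last being the receptor that imports thiolase, were called in SIRT1 KO livers alone, at 0.27 ± 0.07, 0.36 ± 0.09 and 0.37 ± 0.08 (adjusted p = 0.0167, 0.0131 and 0.00865). Pex11a, a division factor, reached 0.63 ± 0.20 in SIRT1 WT livers without a call (adjusted p = 0.0871).

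Most mitochondrial enzymes were flat over the day. Etfdh, which passes electrons from the electron transfer flavoprotein to ubiquinone, was the one rhythmic gene of the 3 for electron transfer: 0.42 ± 0.10 in SIRT6 WT, 0.35 ± 0.06 in SIRT1 KO and 0.30 ± 0.06 in SIRT1 WT livers were called (adjusted p = 0.0385, 0.000409 and 0.00722), and 0.24 ± 0.11 in SIRT6 KO livers was not (adjusted p = 0.323). The SIRT6 WT call ended in 10 of 18 fits without 1 array (up to 0.0833) and without the filter, and the SIRT1 WT call with centred medians. Acadl, the long-chain dehydrogenase, was called in SIRT1 KO (0.42 ± 0.09, adjusted p = 0.00668) and SIRT1 WT livers (0.38 ± 0.09, adjusted p = 0.0210), peaking at ZT 11.3 and ZT 11.9. Its WT call ended without replicate 1 of ZT0 or replicate 3 of ZT12 (up to 0.0576). The other acyl-CoA dehydrogenases Acadm, Acadvl and Acads, the trifunctional protein subunits Hadha and Hadhb, Hadh, the thiolase Acaa2, and Etfa and Etfb were called in no set. Acaa2 had amplitudes of 0.06 to 0.09 over the 4 sets, at most 1.06-fold between trough and peak, and its highest amplitude was the smallest such value of the 32 genes. The median amplitude of the mitochondrial genes was 0.138 and 0.191 in SIRT6 KO and WT livers and 0.138 and 0.109 in SIRT1 KO and WT livers. For the peroxisomal genes it was 0.320 and 0.324, and 0.255 and 0.253, beside 0.200 and 0.232, and 0.217 and 0.212, over all genes tested. The precision limits what a flat fit shows. In simulated data a true amplitude of 0.5 was recovered for 53.7% of genes in the SIRT6 WT design and 70.1% in the SIRT1 WT design. Those genes were drawn over all intensities, with noise independent between genes, so the shares are not those of the mitochondrial genes. Only 67 of 13308 genes were given this amplitude, and 67 and 66 larger ones, while 10.1% and 18.3% of all genes were called in the real WT livers. The shares recovered can therefore differ from those of the real test. Smaller amplitudes were not simulated.

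**Figure D3:**
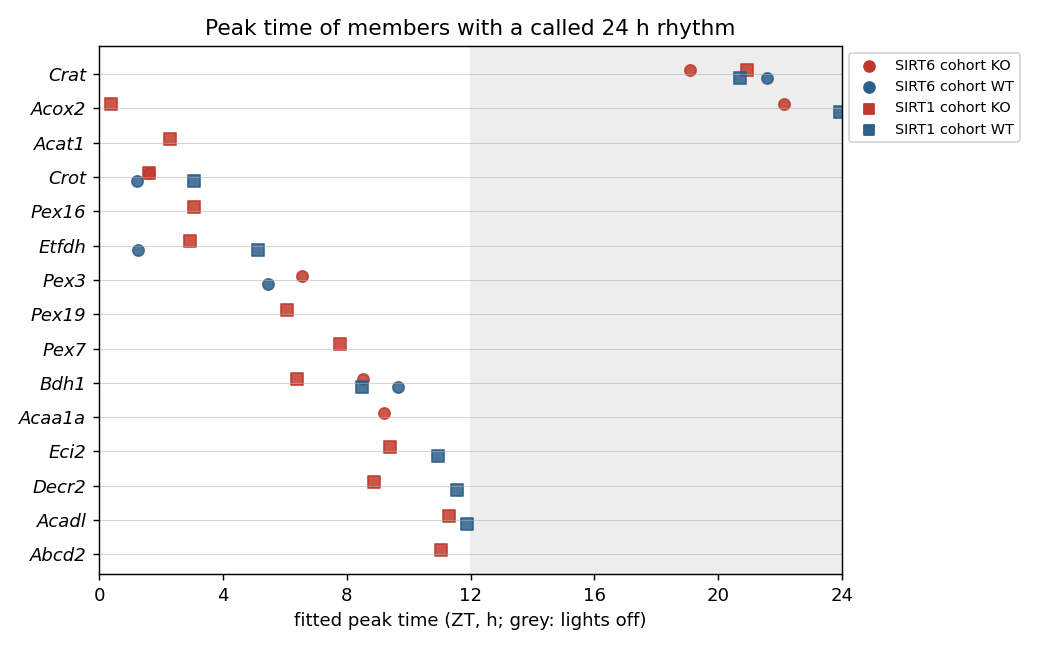
Fitted peak time (x axis, ZT in h, grey for lights off) of the 15 genes with a called rhythm, 1 line per gene, circles for the SIRT6 cohort and squares for the SIRT1 cohort, KO in red drawn above WT in blue. Called peaks of Crot, Etfdh, Bdh1, Eci2, Decr2 and Acadl lie in the light phase, and those of Crat in the dark phase between ZT 19.1 and ZT 21.6.

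Of the 32 genes, 0 differed between livers labelled SIRT6 KO and WT livers in the mean over the day (limma, adjusted p of 0.0719 or more), while 6.61% of all genes did. At an unadjusted p under 0.05 there were 6 of 32, or 18.8%, against 19.3% of all genes. The 6 were Eci1, Etfb, Acadl, Hadh and Acads, each with the higher KO mean, and Acox2 with the lower. Eci1, the mitochondrial enoyl-CoA isomerase, ranged from 10.28 over a median of 10.60 to 10.85 in KO-labelled livers, and from 10.07 over 10.40 to 10.83 in WT livers, so the groups overlapped widely. Its difference was 0.18 ± 0.06 (log2, SE, adjusted p = 0.0719), with the higher KO mean at 6 of 6 times. Acox2 averaged 10.73 ± 0.22 in KO-labelled livers and 10.90 ± 0.25 in WT livers (SD, n = 18 each), a difference of -0.16 ± 0.06 (adjusted p = 0.0753), and 15 of 18 KO-labelled arrays lay below the WT mean of their time. Etfb, the beta subunit of the electron transfer flavoprotein, differed by 0.08 ± 0.03 (adjusted p = 0.0956), Acadl by 0.15 ± 0.06 (adjusted p = 0.157), Hadh by 0.07 ± 0.03 (adjusted p = 0.182) and Acads by 0.09 ± 0.04 (adjusted p = 0.232). A single fit of all 72 arrays called Eci1, Etfb and Acox2, while it called 8.66% of all genes. Array weights called 7 genes, with 19.7% of all genes called under that setting.

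In the SIRT1 cohort Crot fell, and it was the only one of the 32 genes to pass the test in the mean over the day (limma). This share of 3.12% is near the 2.27% of all genes that passed. Crot averaged 11.50 ± 0.46 in SIRT1 KO livers and 11.70 ± 0.36 in WT livers (log2, SD, n = 18 each, time of day included). The difference was -0.20 ± 0.05 (SE, adjusted p = 0.0216), a fold of 0.870, with 14 of 18 KO arrays below the WT mean of their time and the lower KO mean at all times but ZT20. At ZT12 the 3 arrays read 10.71, 10.78 and 10.97 in KO livers, against 11.17, 11.44 and 11.64 in WT livers, with no overlap, a difference of -0.60 ± 0.11. At ZT8 they read 11.57, 11.61 and 11.67 in KO livers, against 11.69, 11.93 and 12.00 in WT livers. The 3 arrays of each genotype did not overlap at ZT8 either, and they overlapped at the other times. The call held in all 36 fits that left out 1 array (adjusted p up to 0.0395) and ended when array medians were centred (-0.14, adjusted p = 0.0607).

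The other 31 genes did not pass in the SIRT1 cohort. At an unadjusted p under 0.05 there were 8 of 32, or 25%, against 18% of all genes. Acads, the short-chain dehydrogenase, averaged 11.18 ± 0.09 in KO livers and 11.09 ± 0.10 in WT livers (SD, n = 18 each), a difference of 0.10 ± 0.03 (SE, adjusted p = 0.119). Hsd17b4 differed by 0.08 ± 0.03 (adjusted p = 0.144), with the higher KO mean at 6 of 6 times. Abcd2 ranged from 5.04 over a median of 6.05 to 8.92 in KO livers, and from 5.53 over 7.15 to 10.08 in WT livers. Its difference was the largest of the 32 in size, -0.83 ± 0.30 (adjusted p = 0.140), and the groups overlapped over most of their range. The KO median of Abcd2 lay near the level of the filter (6.00). Acat1 differed by -0.06 ± 0.03 (adjusted p = 0.196) and Acaa1b by -0.18 ± 0.08 (adjusted p = 0.236). With array medians centred, the median of all genes moved to 0.06 in this cohort, 1403 genes were called higher and 98 lower, and Acadl, Acadvl, Acads and Hsd17b4 passed with the higher KO mean.

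**Figure D4:**
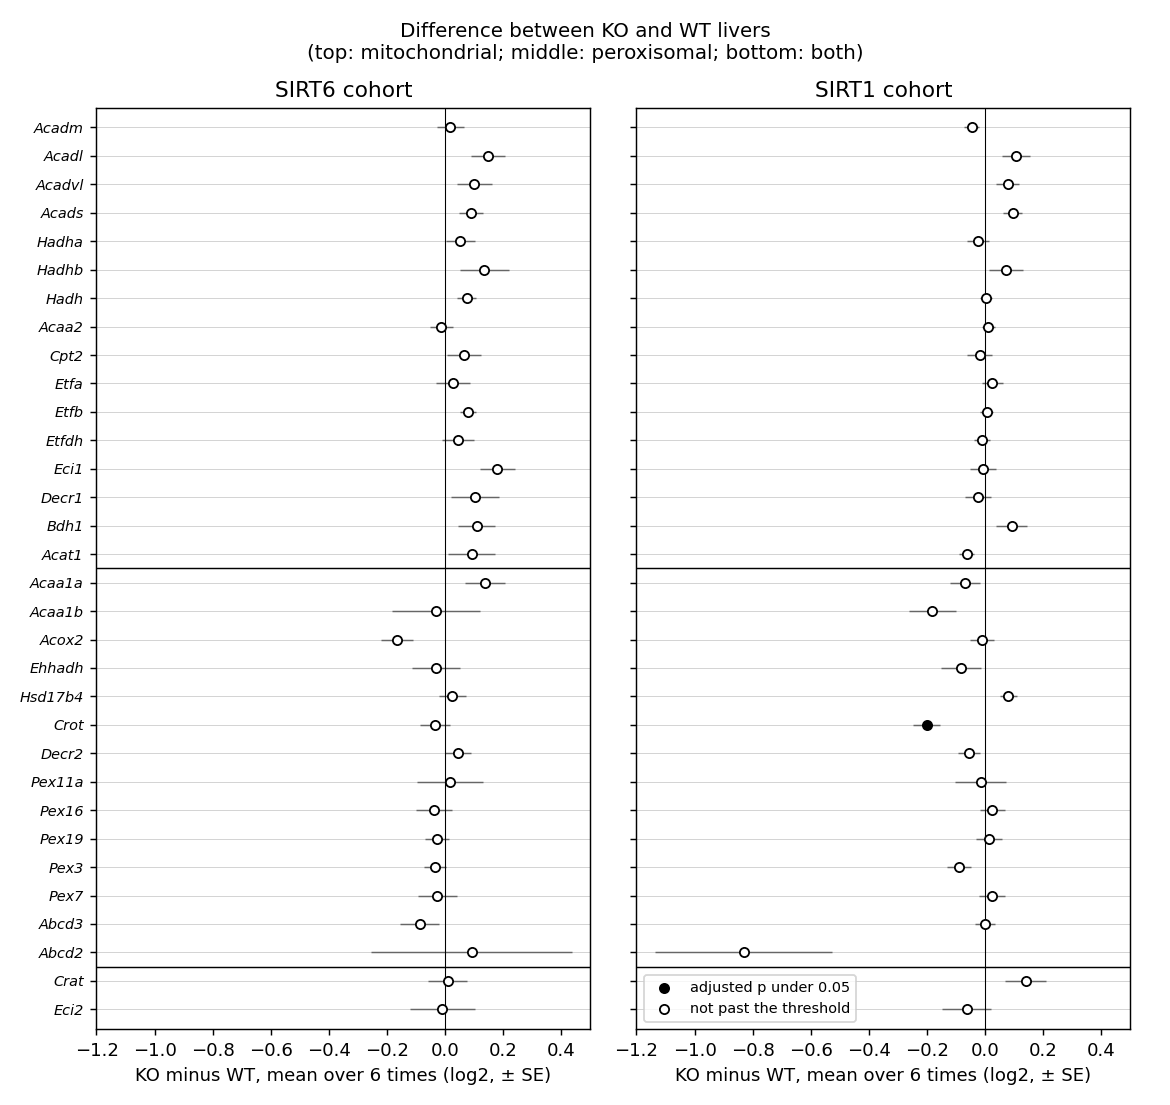
KO minus WT of each of the 32 genes, averaged over the 6 times (x axis, log2, bars are SE), in the SIRT6 cohort (left) and the SIRT1 cohort (right); filled points passed an adjusted p under 0.05. Crot in the SIRT1 cohort, at -0.20, is the only filled point, and in the SIRT6 cohort 15 of 16 mitochondrial genes lie right of 0.

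At single times 0 of the 32 genes passed in either cohort, against 0.473% of all genes for SIRT6 and 0% for SIRT1 (limma, 1 correction over all genes and times). At an unadjusted p under 0.05 at 1 time or more there were 5 genes for SIRT6 and 18 for SIRT1, or 15.6% and 56.2%, against 32.7% and 38.6% of all genes. The smallest adjusted p were those of Crot at ZT12 in the SIRT1 cohort (0.141) and of Acox2 at ZT8 in the SIRT6 cohort (0.325). Acox2 read 10.27, 10.52 and 10.59 there in KO-labelled livers, against 10.54, 10.95 and 11.15 in WT livers, with 1 overlapping array. By time, KO means were the lower ones for 26 of 32 genes at ZT0 in the SIRT6 cohort (81.2%, against 53.8% of all genes) and for 3 of 32 at ZT16 (9.38%, against 52.3%). The lower KO mean was found in the SIRT1 cohort for 7 of 32 at ZT8 (21.9%, against 49.3%) and 24 of 32 at ZT16 (75%, against 59.5%). These times were picked after the values were seen, each rests on 3 arrays a group, and most of the genes correlate from array to array, as given further on.

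The rhythm itself differed between genotypes for 0 of the 32 genes in either cohort (limma, genotype by cosine terms), with 0.00751% of all genes passing for SIRT6 and 0% for SIRT1. At an unadjusted p under 0.05 the counts were 0 of 32 in the SIRT6 cohort, against 8.25% of all genes, and 2 of 32 in the SIRT1 cohort, Crot (0.0193) and Pex3 (0.0301), or 6.25% against 7.25%. Both had an adjusted p of 0.673. Crot peaked at ZT 1.63 with an amplitude of 1.16 in SIRT1 KO livers, against ZT 3.05 and 0.89 in WT livers. The genes called rhythmic in one genotype alone, such as Pex7 or Acat1, were thus not shown to differ in rhythm between genotypes.

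The 2 knockouts were set against each other as the difference of their KO effects, each against its own WT. It passed for 0 of the 32 genes, against 5.76% of all genes (limma, 24 group means). At an unadjusted p under 0.05 there were 5 of 32, or 15.6%, against 19.6% of all genes. The 5 were Eci1, Acaa1a, Crot, Acox2 and Etfb. Eci1 had an effect of 0.18 in the SIRT6 and -0.01 in the SIRT1 cohort, a difference of 0.19 ± 0.08 (adjusted p = 0.143). For Acaa1a the effects were 0.14 and -0.07, a difference of 0.21 ± 0.09 (adjusted p = 0.161). Crot had an effect of -0.03 in the SIRT6 and -0.20 in the SIRT1 cohort, a difference of 0.17 ± 0.07 (adjusted p = 0.164), so the fall of Crot was not shown to be particular to the SIRT1 cohort. Strain, cohort and targeted gene cannot be told apart in this comparison.

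Mitochondrial and peroxisomal genes were also set side by side in their KO effects. For SIRT6, the KO mean was above the WT mean for 15 of 16 mitochondrial genes, with a median difference of 0.08, and for 5 of 14 peroxisomal genes, with a median of -0.03. Over all genes tested the share was 51.7% and the median 0.00. From ZT0 to ZT20 the higher KO mean was found for 3, 13, 15, 12, 15 and 15 of 16 mitochondrial genes. For the 14 peroxisomal genes the counts were 3, 9, 10, 2, 12 and 8. Both kinds were thus mostly lower at ZT0 and mostly higher at ZT8 and ZT16, and they parted most at ZT12. In the mean over the day the mitochondrial median exceeded the peroxisomal one by 0.113. Between single arrays of a group the same difference had an SD of 0.0786. Here and for SIRT1 below, that SD is of single arrays and not the error of a difference between means of 18 arrays. In the SIRT1 cohort 9 of 16 mitochondrial and 4 of 14 peroxisomal genes had the higher KO mean, beside 49.1% of all genes. Their medians were 0.00 and -0.03, beside 0.00 over all genes, and differed by 0.0392 (SD of single arrays 0.0527). With array medians centred the SIRT1 counts became 15 of 16 and 8 of 14. The peroxisomal count in the SIRT6 cohort was 8 without replicate 1 of KO ZT12 and 3 without replicate 1 of KO ZT8. For SIRT1 it was 7 without replicate 1 of WT ZT12 and also 7 without replicate 3 of KO ZT12. No test was made over genes, which are not replicates.

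Beside these, 10 of 10 Kupffer cell markers were higher in mean in the SIRT6 KO-labelled livers (median 0.17, 0 past the threshold), and 0 of 10 in the SIRT1 KO livers (median -0.12, 0 past the threshold). The mean level of the 10 markers ranged over arrays from 7.87 to 10.5 in SIRT6 KO-labelled and from 7.52 to 10.2 in SIRT6 WT livers, and from 7.18 to 8.83 in SIRT1 KO and 7.67 to 9.001 in SIRT1 WT livers. The hepatocyte markers had the higher KO mean for 1 of 8 genes in the SIRT6 cohort (median -0.04) and 3 of 8 in the SIRT1 cohort (median -0.01). Endothelial markers did for 3 of 8 and 0 of 8, and stellate cell markers for 7 of 8 in each cohort, with 0 past the threshold. Of the 6 lymphocyte markers tested, 5 had the higher KO mean for SIRT6 (median 0.11) and 3 for SIRT1 (median 0.00), with 0 past the threshold. Of the 13 acute phase genes, 10 had it for SIRT6 (median 0.05) and 5 for SIRT1 (median -0.02), with 1 past the threshold in each. The mean level of the acute phase genes ranged over arrays from 10.78 to 12.6 in SIRT6 KO-labelled and from 10.3 to 12.0 in SIRT6 WT livers. Their part in the values of the 32 genes was not tested.

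Between replicate arrays most pairs of the 32 genes correlated positively. After the group means were removed, the median over the 496 pairs was 0.611 for SIRT6 and 0.301 for SIRT1 (36 arrays each), beside 0.0235 and 0.0458 over all pairs of genes tested. The correlation was below 0 for 8.87% and 18.5% of the 496 pairs, and for 47.6% and 44.2% of all pairs. By kind, the median was 0.759 between mitochondrial genes, 0.512 between peroxisomal genes and 0.572 between genes of different kinds in the SIRT6 cohort. The SIRT1 medians were 0.398, 0.232 and 0.274. The lowest pairs were peroxisomal, at -0.604 for SIRT6 and -0.556 for SIRT1. These are descriptions over arrays that share an RNA and a hybridisation, and in the SIRT6 cohort 52.6% of the within-group variance of all genes lay on 1 component, against 18% for SIRT1. Hadha and Hadhb, whose windows overlap as shown above, correlated at 0.934 in the SIRT6 and 0.484 in the SIRT1 cohort. Hadha and Acadl, which lie on different chromosomes, reached 0.916 and 0.733, and a part of the shared window was not tested. Abcd3 and Pex11a reached 0.937 and 0.650, and Decr1 and Decr2, the reductases of the 2 organelles, 0.607 and 0.863. The pairs Hadha with Hadhb and Abcd3 with Pex11a were among the highest of the SIRT6 cohort, and Decr1 with Decr2 of the SIRT1 cohort. Crot and Crat, both strongly rhythmic, correlated at only 0.409 and 0.270 once the time of day was removed. Replicates accounted for a median of 67.6% of the variance of mitochondrial genes for SIRT6 and 63.0% for SIRT1, and the time of day for 11.2% and 18.1%. For peroxisomal genes the time of day accounted for 28.5% and 30.0%.

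A further list of 51 genes of the same pathway, such as fatty acid import, thioesterases, further PEX genes and regulators, had 41 genes with a probe set, and the other 10 were not analysed here. In the SIRT6 cohort 0 of the 41 passed in the mean over the day (limma, beside 6.61% of all genes), and 10 had an unadjusted p under 0.05 (24.4%, beside 19.3% of all). For SIRT1, 1 of 41 passed, or 2.44%, which is near the 2.27% of all genes, and 6 had an unadjusted p under 0.05 (14.6%, beside 18% of all). The gene that passed was Pex5, the receptor that imports most peroxisomal enzymes, which rose in KO livers. Pex5 averaged 9.48 ± 0.14 there and 9.33 ± 0.11 in WT livers (SD, n = 18 each), a difference of 0.15 ± 0.04 (SE, adjusted p = 0.0487). That call was lost in 25 of 36 fits without 1 array (up to 0.0886) and under 4 alternatives. Cpt1a, the outer-membrane enzyme that commits fatty acids to mitochondrial oxidation, did not pass in either cohort (-0.01 ± 0.05 in SIRT6 and 0.07 ± 0.04 in SIRT1, log2), nor did Ppara (0.13 ± 0.12 and 0.04 ± 0.05). Cpt1a had amplitudes of 0.81 ± 0.10 in SIRT6 KO, 0.68 ± 0.10 in SIRT6 WT, 0.67 ± 0.08 in SIRT1 KO and 0.90 ± 0.08 in SIRT1 WT livers, with peaks from ZT 8.99 to ZT 10.2. Ppara was rhythmic in SIRT6 KO, SIRT1 KO and SIRT1 WT livers, at 0.91 ± 0.19, 0.63 ± 0.12 and 0.82 ± 0.11, and not called in SIRT6 WT livers (0.34 ± 0.26, adjusted p = 0.607). Rhythms were called for 7 of the 41 in SIRT6 KO and 3 in SIRT6 WT livers (17.1% and 7.32%, beside 10.6% and 10.1% of all genes), and for 18 in SIRT1 KO and 13 in SIRT1 WT livers (43.9% and 31.7%, beside 23.2% and 18.3%). Cpt1a, Hacl1 and Pxmp4, the last 2 named after their values were seen, were called in all 4 sets. Hacl1, a peroxisomal lyase of alpha-oxidation, and Pxmp4, a peroxisomal membrane protein, peaked between ZT 20.4 and ZT 22.9, as Crat did between ZT 19.1 and ZT 21.6.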

How the data were processed

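Liver RNA of 72 mouse samples was measured on single-colour Affymetrix arrays. Per the submitters' processing notes, Expression Console 1.1.1 and PLIER 2.0 were used; the sources used here give neither the genome build nor the normalization settings. The authors deposited 1 intensity per probe set and array, which by its range is linear. Of 41345 probe sets, 23521 carried 1 symbol in the platform annotation, 1814 several and 16010 none; those with 1 symbol were named, and a gene was represented by its brightest probe set on average.

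Levels are log2(intensity + 16), so that differences of dim genes are understated. The lowest 40% of genes by mean (under 6.00) were left out, which leaves 13308. Levels were never compared between genes. Each cohort was fitted with limma 3.58.1 (R 4.3.3) as 12 group means over 36 arrays, moderated by empirical Bayes with an intensity trend; KO minus WT was averaged over the 6 times or taken per time. Rhythms were tested with a 24 h cosine per 18 arrays, differences in rhythm with genotype by cosine terms, and the difference of the KO effects over 72 arrays. Adjusted p-values are Benjamini-Hochberg values over all genes tested, with a threshold of 0.05. The number of arrays limits the precision. On simulated data the day mean test recovered 56.7% of differences of 0.25 for SIRT6 and 73.1% for SIRT1, among 13308 genes. The simulated noise was independent between genes, unlike that of the arrays. Only 67 genes were given this difference, and 67 and 66 larger ones, while 6.61% and 2.27% of all genes were called in the real SIRT6 and SIRT1 cohorts. Groups, times and replicate numbers came from the sample titles, and no same-numbered samples are stated to share a mouse or day. The 32 genes, the lists and the tests were chosen with earlier results of these data known. All 32 genes are described, with full statistics for those past a threshold. In the day mean tests of KO against WT, where under 6 passed, the 6 with the smallest p are given. The other tests name fewer genes. Coordinates are those of the RefSeq promoter table (GRCm38.p6), not of the arrays. The alternatives are given in the closing section.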

Additional observations from a re-analysis of the deposited data

How the results depend on the processing

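Counts are of the 32 genes unless stated otherwise. Quantile normalization, pseudocounts of 1 and 64, no filter or one of 60%, the mean of a gene's probe sets, and no trend left the KO counts at 0 and 1 for the day mean; without the filter the SIRT6 WT rhythm count was 3. Array weights gave 7 and 2 for the day mean (SIRT6, SIRT1), beside 19.7% and 7.84% of all genes. They also gave 6 and 1 at single times, 5 for the difference between the cohorts, and 10 and 9 rhythms in SIRT6 KO and WT livers. Of the further genes they called 8 and 5. Centred array medians gave 4 for the SIRT1 day mean (11.3% of all genes), 1 for the difference between the cohorts and 3 further genes in SIRT1. There 15 mitochondrial and 8 peroxisomal genes had the higher KO mean. A fit of all 72 arrays gave 3 for the SIRT6 day mean (8.66% of all genes), and 3 and 0 further genes. For the other counts of these settings the share of all genes is not given here. Quantile normalization, no filter and no trend gave 0 further genes in SIRT1. An F test over the 6 times left 2 and 1 rhythms in SIRT6 KO and WT livers and 8 in SIRT1 KO livers. The cause of these differences was not tested. Without 1 array each, the day mean count was 0 to 1 (SIRT6) and 1 to 2 (SIRT1) and single times and differences in rhythm stayed at 0, as did the difference between the cohorts; adjusting over rhythmic genes alone also left differences in rhythm at 0. Rhythms ranged over 5 to 9 and 2 to 5 in SIRT6 KO and WT livers, and 11 to 14 and 7 to 10 in SIRT1 KO and WT livers. The further counts were 0 to 2 (SIRT6) and 0 to 1 (SIRT1). Mitochondrial genes with the higher KO mean, a count added after seeing the data, numbered 14 to 16 and 7 to 11, peroxisomal ones 3 to 8 and 3 to 7, and the medians differed by 0.0823 to 0.122 and 0.0311 to 0.063. The replicate block left these counts as they were: 0 and 1 for the day mean, 6 and 5 rhythms in SIRT6, 13 and 8 in SIRT1. Same-numbered samples of KO and WT correlated in their deviations at -0.361 to 0.743 in SIRT6 (11 of 18 over 0.1). In SIRT1 they did so at -0.284 to 0.370 (6 of 18). The mean was 0.222 in SIRT6 and 0.0166 in SIRT1, against -0.105 and -0.0092 for samples of different numbers. As the titles state no pairing, the numbers were not taken as pairs. A paired fit within times was not made, so shared structure by number in SIRT6 was not modelled that way. Of 63 uncalled differences, 18 changed sign under at least 1 alternative and 20 without 1 array.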
